A study of Mus musculus with 6 samples.

Results

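The genes described here are 10 genes of mouse cathepsins and of the proteins that inhibit them: the inhibitors Ctla2a, Ctla2b, Cst7 and Stfa3 and the proteases Ctsl, Ctsb, Ctsc, Ctsd, Ctss and Ctsw. They were chosen by name, as every probe set annotated to exactly 1 gene when that gene was one of these, and all 10 were measured, by 17 probe sets, among 18193 genes tested in the series. The choice was made with the genotype differences of these genes known, Ctla2a and Stfa3 being among the largest of all genes. The differences of the 10 genes are therefore given as a description, with their errors. Whether each of them passed the threshold of a test over all genes is stated in the same way, and is not read as evidence for a difference.

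The study measured RNA of regulatory T (Treg) cells, which restrain immune responses and depend on the transcription factor Foxp3. Each genotype, Batf+/+ and Batf-/-, had 3 arrays. Batf is an AP-1 factor that pairs with Jun proteins and can bind DNA together with Irf4. In both groups the cells were CD4+ and positive for human CD2, a reporter expressed with Foxp3 (FoxP3hCD2). They were sorted from spleen and lymph node of mice on the C57BL/6 background and used ex vivo with no treatment. The labels give no age, name no cell type to which the loss of Batf was restricted, and do not say whether each array came from a different mouse, so the errors and p-values cover only how far these arrays differ from each other, and part of that may be technical.

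Cathepsins are proteases of lysosomes, and most of them are cysteine proteases made as inactive precursors whose propeptide covers the active site. Several layers of inhibitors restrain them: Ctla2 proteins resemble such a propeptide, cystatin F (Cst7) acts inside endosomes and lysosomes, and stefins act mainly in the cytosol. In lymphocytes the balance bears on granule proteases, because cathepsin C removes the dipeptide that keeps granzymes inactive.

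Each value is on a log2 scale whose 0 is the middle Batf+/+ array of that probe set, so values show how a gene differed between arrays and not how abundant its transcript was. A gene whose transcript was absent from both genotypes would also show values near 0. Batf, from its 1 probe set, stood at -3.13, -3.16 and -2.37 on Batf-/- arrays 1, 2 and 3, and its log2 difference was -2.89 ± 0.19 (SE, n = 3 arrays per genotype), or -2.02 after quantile normalization. Of 8 markers of Treg and T cells, Foxp3 among them, 0 were past the threshold of the limma test, an adjusted p below 0.05. Of all genes 1.14% were past it. An unadjusted p below 0.05 was found for 2 of the 8, as for 7.69% of all genes. The mean of the 8 markers lay between -0.07 and 0.02 on Batf+/+ arrays and lower, between -0.15 and -0.10, on Batf-/- arrays, and its part in the results was not tested. The marker with the largest difference, Ikzf2 (the transcription factor Helios, named after its value was seen), stood at -0.51 ± 0.10 (SE, adjusted p = 0.0526). Il2ra, the other marker with an unadjusted p below 0.05 and also named after its value was seen, went the other way. Its difference was 0.21 ± 0.07 (SE, limma adjusted p = 0.394). In RNA from a sorted population, fewer cells that express a gene and less of its RNA per cell cannot be told apart.

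Among the 10 genes, the larger differences were those of the inhibitors. Of the 4 inhibitor genes 3 fell in Batf-/- Treg cells, Ctla2a, Ctla2b and Cst7, and 1 rose, Stfa3, while of the 6 proteases 1, Ctsw, fell and 5 did not pass the threshold. The limma test thus called 4 of the 10 genes lower, where 0.830% of all 18193 genes were called lower, and 1 of 10 higher, where 0.313% were (1.14% in either direction). The same 5 genes were those whose arrays did not overlap between genotypes, 4 lower and 1 higher, a separation found downward in 6.55% and upward in 5.50% of all genes (12.0% in either direction). Because these differences were known when the genes were chosen, nothing is read from those shares or from the contrast of inhibitors with proteases. The median log2 difference of the 10 genes was -0.06, and that of all genes was 0.0047.

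**Figure D1:**
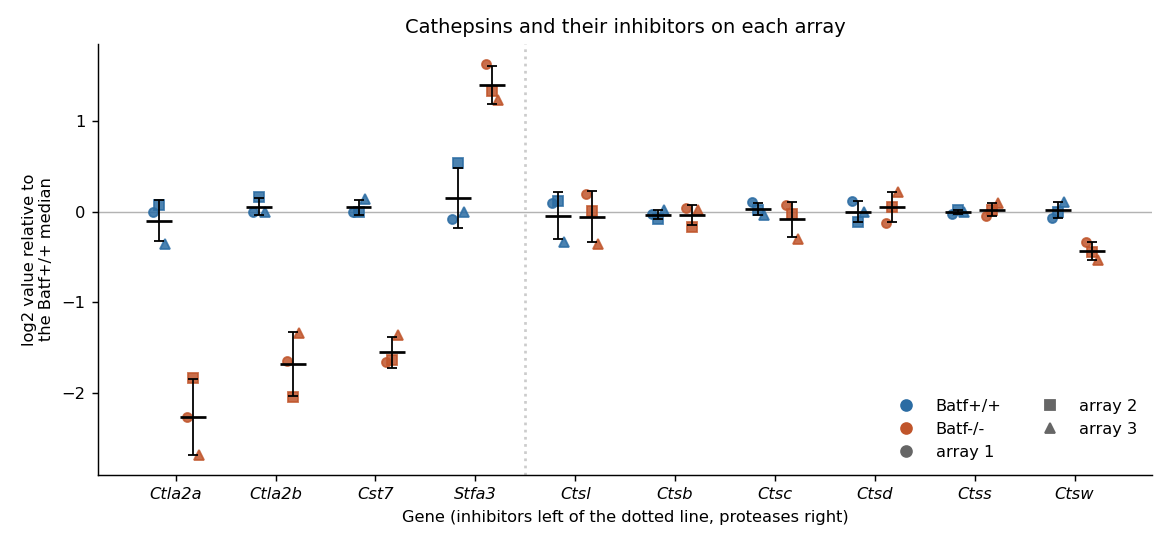
Log2 value relative to the Batf+/+ median (vertical axis) for each gene (horizontal axis) on the 3 Batf+/+ arrays (blue) and the 3 Batf-/- arrays (orange), with marker shape for the array number and black bars for the mean and SD. Ctla2a, Ctla2b and Cst7 lay between -2.69 and -1.35 on the Batf-/- arrays and Stfa3 between 1.24 and 1.64, whereas 5 of the 6 proteases overlapped between genotypes.

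Ctla2a and Ctla2b are neighbouring copies of one gene, and the letters upstream of their starts are shown here because both genes fell and both stretches hold the sequence that AP-1 factors recognise. The sequences are RefSeq's, of build GRCm38.p6, which gave promoter windows for 8 of the 10 genes (Ctsb and Ctsw being the others), each from 250 bases before to 50 bases after a start. They are written 5′ to 3′ on the gene's strand, with the letters TGANTCA in capitals, and the first 250 bases of each window are printed. The stretch of Ctla2a lies at chr13:60936626-60936875 on the minus strand, before the more upstream of its 2 starts, and that of Ctla2b at chr13:60897448-60897697 on the minus strand.
Ctla2a: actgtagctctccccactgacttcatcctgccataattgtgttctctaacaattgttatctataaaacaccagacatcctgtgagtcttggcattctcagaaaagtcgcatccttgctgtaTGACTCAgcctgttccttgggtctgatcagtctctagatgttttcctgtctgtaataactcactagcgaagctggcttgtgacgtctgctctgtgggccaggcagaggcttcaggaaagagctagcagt
Ctla2b: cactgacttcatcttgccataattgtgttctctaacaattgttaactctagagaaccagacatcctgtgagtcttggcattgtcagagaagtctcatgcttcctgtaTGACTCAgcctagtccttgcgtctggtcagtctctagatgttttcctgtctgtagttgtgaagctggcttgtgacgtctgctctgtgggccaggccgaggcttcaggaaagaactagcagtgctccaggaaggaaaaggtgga
Both hold TGACTCA, beginning at base -129 from the start of Ctla2a and base -143 from that of Ctla2b, and the 2 motifs stood in the same column when the windows were aligned. Over the 278 bases aligned without gaps the windows were 92.1% identical.

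Cst7 and Stfa3 held the motif at other places. In Cst7, at chr2:150570325-150570434 on the plus strand, TGATTCA began at base -6 from the start, and 4 bases after it came GAAA, the letters of an IRF half-site; both are in capitals here, and the stretch runs from base -90 to base 20.
Cst7: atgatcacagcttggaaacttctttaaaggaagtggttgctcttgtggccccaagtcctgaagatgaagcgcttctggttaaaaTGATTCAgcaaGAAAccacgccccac
In Stfa3, the gene that rose, TGAGTCA lay after the start, its first base being base 30 of the transcript, shown with 30 bases at chr16:36455345-36455374 on the minus strand.
Stfa3: ctgcccatcaaTGAGTCAagaaaacttaaa
Over all 32851 promoter windows of the same length, 7.81% held TGANTCA, which reads the same on both strands, and 0.119% held on either strand the composite of TGANTCA, any 4 bases and GAAA, which contains the former. The genes with TGANTCA were Cst7, Ctla2a, Ctla2b and Stfa3, 4 of the 8 with a window. Counted by window, as the share over all windows is, that was 5 of 9. The gene with the composite was Cst7. Ctsd and Ctsl instead held CACGTG, the core of the element through which Tfeb drives lysosomal genes, beginning at bases -245 and -98 from the start of Ctsd and -236 from that of Ctsl; 7.15% of all windows held it. The composites in which GAAA comes directly or 1 base before TGANTCA, the CRE TGACGTCA, and a kappa B-like spelling of GGAA, any 3 bases and CCC, all searched on both strands, matched 0 of these windows. The 7 spellings were chosen after the sequences and differences had been seen. Binding of Batf was not measured in these data, and a match is a run of letters, not a site. Among genes with a window, TGANTCA was present in 16 of the 127 called lower (12.6%), 5 of the 46 called higher (10.9%) and 1069 of the 14279 not called (7.49%). The first count includes Ctla2a, Ctla2b and Cst7 and the second Stfa3, whose sequences had been seen when the spelling was chosen. Nothing is read from these shares.

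**Figure D2:**
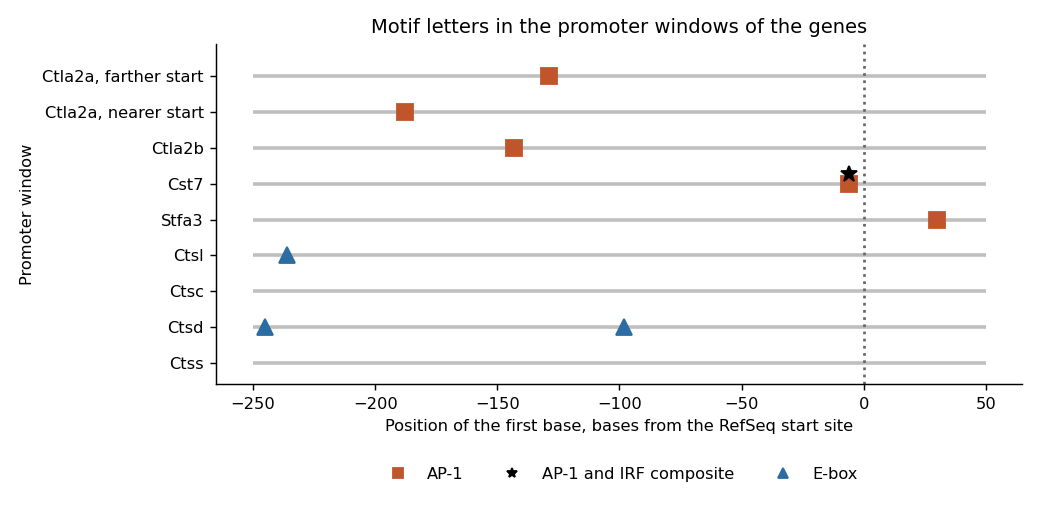
Position of the first base of each motif match, in bases from the RefSeq start site (horizontal axis), in the promoter windows of the 8 genes with one (vertical axis; Ctla2a has 2 starts). AP-1 marks TGANTCA, the composite adds GAAA, and E-box is CACGTG; the AP-1 letters appear in the 4 inhibitor genes and the E-box in Ctsd and Ctsl.

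Ctla2a, whose protein inhibits cathepsin L and which is known from activated T cells and mast cells, had the lowest values of the group. On Batf+/+ arrays 1, 2 and 3 its values were 0, 0.07 and -0.36, and on Batf-/- arrays 1, 2 and 3 they were -2.27, -1.84 and -2.69. The 2 genotypes were separated by a wide gap, although the Batf-/- arrays spread more (0.42 SD, n = 3) than the Batf+/+ arrays (0.23 SD, n = 3). The log2 difference was -2.17 ± 0.20 (SE), which is 4.50-fold lower (95% interval -2.62 to -1.72), and only 5 of all genes had a lower difference. After quantile normalization it was -1.48.

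Ctla2b, the companion copy, followed the same direction with a different order of arrays. Its values were 0, 0.16 and 0 on the Batf+/+ arrays and -1.65, -2.05 and -1.35 on the Batf-/- arrays. Array 2 was thus the lowest Batf-/- array for Ctla2b and the highest for Ctla2a. The log2 difference was -1.74 ± 0.16 (SE), or 3.33-fold lower (95% interval -2.09 to -1.38), rank 13 from the lowest of all genes. A further probe set, 1416811_s_at, is annotated to both genes and so lies outside the rule. It read 0, 0.25 and -0.11 on the Batf+/+ arrays and -2.39, -2.32 and -2.52 on the Batf-/- arrays, a log2 difference of -2.46, with the Batf-/- arrays closer together (0.10 SD, n = 3) than for either gene's own probe set. How far the 1-gene probe sets 1448471_a_at (Ctla2a) and 1452352_at (Ctla2b) also take up the other copy's transcript was not tested, so the split between the copies is uncertain while the direction was the same in all 3 probe sets.

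Cst7 encodes cystatin F, an inhibitor made by cytotoxic lymphocytes and myeloid cells that is targeted to lysosomes and acts on cathepsin C. Its values were -0.0035, 0 and 0.15 on the Batf+/+ arrays and -1.67, -1.64 and -1.36 on the Batf-/- arrays. Array 3 was the highest of each genotype, and all Batf-/- arrays lay far below. The log2 difference was -1.60 ± 0.10 (SE), or 3.04-fold lower (95% interval -1.83 to -1.37), with the smallest error of the 4 inhibitors and rank 15 from the lowest. Across the 6 arrays the profile of Cst7 lay nearer to Ctla2b (Euclidean distance 0.47 log2 units) than either did to Ctla2a (1.56 for Cst7 and 1.54 for Ctla2b).

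Stfa3, a member of the stefin A group of cytosolic cysteine protease inhibitors, went the other way. It read -0.08, 0.53 and 0 on the Batf+/+ arrays and 1.64, 1.34 and 1.24 on the Batf-/- arrays. All Batf-/- arrays were above all Batf+/+ arrays, among which array 2 stood highest. The log2 difference was 1.25 ± 0.17 (SE), or 2.38-fold higher (95% interval 0.87 to 1.63), rank 15 from the highest of all genes. After quantile normalization the difference was 0.81 and no longer past the threshold. Stefin A genes are near-identical copies, and whether probe set 1419709_at also takes up other stefins was not tested. Stefins are abundant in neutrophils. Of the 10 measured neutrophil markers 0 were called and 1 had an unadjusted p below 0.05 (1.14% and 7.69% of all genes). Their median log2 difference was 0.0016. Their mean lay between -0.12 and 0.09 on Batf+/+ arrays and between -0.18 and 0.06 on Batf-/- arrays. Whether neutrophils had a part in the values of Stfa3 was not tested.

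Ctsw, a cathepsin of natural killer and CD8 T cells, was the protease that differed most. Its values were -0.07, 0 and 0.11 on the Batf+/+ arrays and -0.33, -0.44 and -0.53 on the Batf-/- arrays. The genotypes did not overlap, but the gap was small beside those of the inhibitors. The log2 difference was -0.45 ± 0.09 (SE), or 1.36-fold lower (95% interval -0.64 to -0.26), rank 234 from the lowest. It was near the limma threshold: of 12 alternative settings it stayed past it in 1, array weights, and lost it in 11, among them the replicate block and the omission of any one of the 6 arrays, while its difference stayed between -0.50 and -0.37. The NK cell markers (5 measured) and CD8 T cell markers (2 measured) had 0 called genes by limma, where 1.14% of all genes were called. An unadjusted p below 0.05 was found for 1 and 0 (7.69% of all genes), and the medians were -0.02 and 0.02. The NK cell marker with such a p, Eomes, was named after its value was seen. It was higher in Batf-/-, by 0.41 ± 0.17 (SE, limma adjusted p = 0.574). The part of such cells in the values of Ctsw was not tested.

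**Figure D3:**
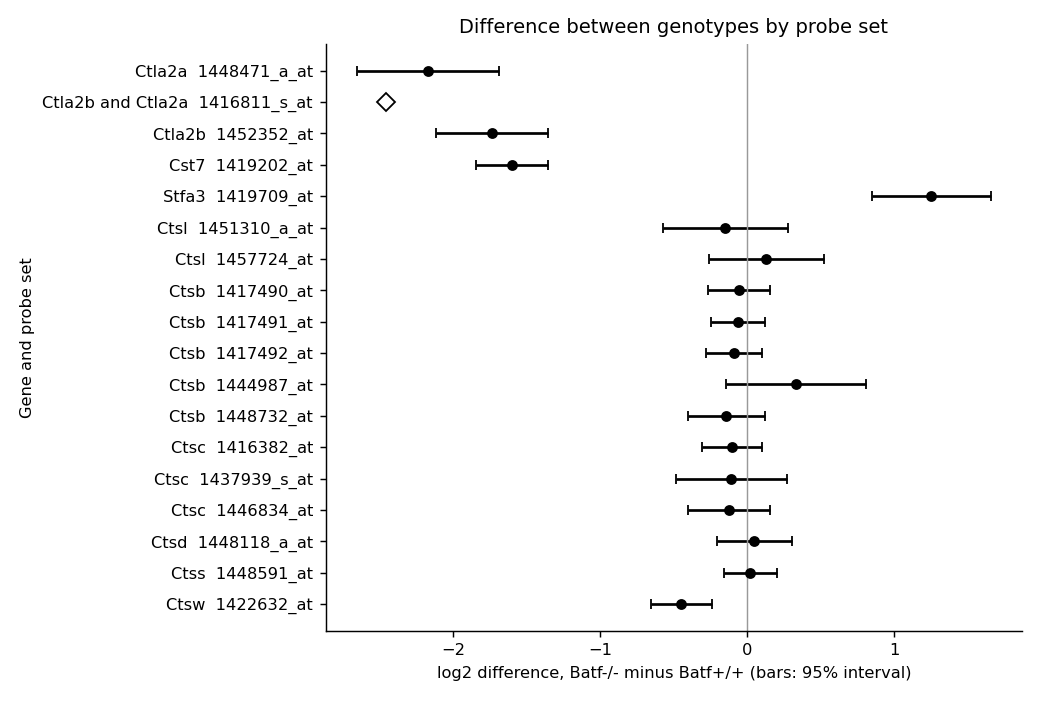
Log2 difference between genotypes (horizontal axis; negative is lower in Batf-/-) for each of the 17 probe sets of the 10 genes (vertical axis), with 95% intervals from limma, and for the probe set shared by Ctla2a and Ctla2b (open diamond, no interval). The 3 Ctla2 probe sets lie between -2.46 and -1.74, and the 12 probe sets of Ctsl, Ctsb, Ctsc, Ctsd and Ctss all have intervals that include 0.

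The other 5 proteases, which include the most widely expressed lysosomal enzymes, had log2 differences between -0.11 and 0.05, and each overlapped between genotypes. Their 95% intervals lay between -0.38 and 0.36, so a change of more than 1.30-fold in either direction was outside the interval of each of them, under the scaling of the deposited values. That holds for the mean of each gene's probe sets. Intervals of single probe sets reached further, to 0.81 for 1444987_at (Ctsb) and to -0.58 for 1451310_a_at (Ctsl). Ctsl, a target of Ctla2a that also processes the invariant chain in thymic epithelium, read 0.09, 0.12 and -0.34 on the Batf+/+ arrays and 0.19, 0.0048 and -0.36 on the Batf-/- arrays. Array 3 was the lowest of each genotype, and the spread between arrays (0.26 and 0.28 SD, n = 3) was far larger than the difference, -0.01 ± 0.16 (SE). Its 2 probe sets gave -0.15 and 0.13.

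Ctsc, the activator of granzymes, read 0.10, 0.02 and -0.03 on the Batf+/+ arrays and 0.08, -0.03 and -0.30 on the Batf-/- arrays. Only Batf-/- array 3 was below the Batf+/+ range, and the difference was -0.11 ± 0.11 (SE), which was -0.0052 without that array. Its 3 probe sets gave differences of -0.11, -0.11 and -0.13, and in 1 of them, 1416382_at, the genotypes did not overlap.

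Ctsb, which acts as both an endopeptidase and an exopeptidase, read -0.03, -0.09 and 0.02 on the Batf+/+ arrays and 0.04, -0.16 and 0.02 on the Batf-/- arrays. Its difference was -0.0040 ± 0.08 (SE), but the mean joined 5 unequal probe sets: 4 lay between -0.14 and -0.06, and 1444987_at lay at 0.33, with Batf-/- values of 0.70, -0.16 and 0.32. All 5 overlapped between genotypes.

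Ctsd, the aspartic protease of the group and so outside the reach of cystatins, read 0.12, -0.11 and 0 on the Batf+/+ arrays and -0.12, 0.06 and 0.22 on the Batf-/- arrays, a difference of 0.05 ± 0.10 (SE). Ctss, the protease that trims the invariant chain of MHC class II in antigen-presenting cells, read -0.02, 0.02 and 0 on the Batf+/+ arrays and -0.04, 0.02 and 0.09 on the Batf-/- arrays, a difference of 0.02 ± 0.07 (SE). Batf-/- array 3 was the highest array for both genes. On that array the 12 macrophage and monocyte markers had a mean of 0.35, against -0.15 and 0.03 on the other Batf-/- arrays and -0.04 to 0.14 on the Batf+/+ arrays, and the 9 measured genes of MHC class II loading had a mean of 0.53, against -0.02 and 0.03. Their part in the values of Ctsd and Ctss was not tested. Limma called 0 genes of either list, with 0 and 1 at an unadjusted p below 0.05 (1.14% and 7.69% of all genes).

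Beyond the 10 genes, the cathepsin and cystatin families showed no called gene. The lists held 9 other proteases (cathepsins and Lgmn), 9 measured placental and cathepsin L-like genes and 10 measured other cystatins and stefins. Of these 28 genes limma called 0, where 1.14% of all genes were called. An unadjusted p below 0.05 was found for 1, as for 7.69% of all genes. That gene, Ctsll3 (a cathepsin L-like gene, named after its value was seen), had a log2 difference of -0.43 ± 0.10 (SE, adjusted p = 0.120). The 28 differences ran from -0.43 to 0.19 with a median of -0.03. Transcripts absent from both genotypes would also read near 0. The 10 genes were chosen with their differences known, so nothing is read from their contrast with these 28. Cst3, the secreted cystatin C, had a difference of -0.19 ± 0.11 (adjusted p = 0.841). Cstb, the widely expressed stefin B, had one of -0.10 ± 0.08 (adjusted p = 0.957), and Lgmn, an asparaginyl endopeptidase that cuts several cathepsins into their mature chains, one of -0.16 ± 0.10 (adjusted p = 0.903). Ctsz and Ctsh, a carboxypeptidase and an aminopeptidase, stood at -0.0019 ± 0.10 (adjusted p = 0.99998) and -0.06 ± 0.13 (adjusted p = 0.99991).

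**Figure D4:**
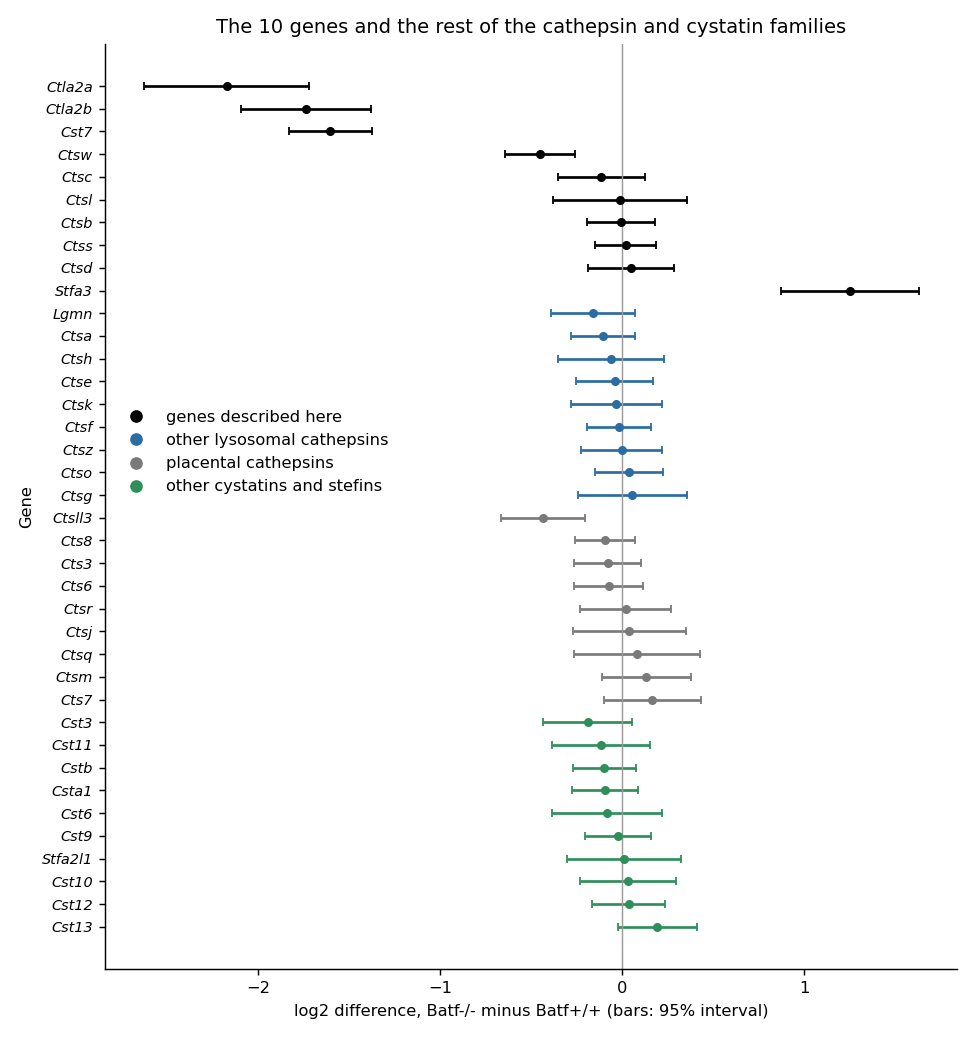
Log2 difference between genotypes with 95% intervals from limma (horizontal axis) for the 10 genes (black) and the 28 other measured genes of the cathepsin, placental cathepsin and cystatin lists (colours), ordered within each list (vertical axis). The 28 other genes run from -0.43 to 0.19, while Ctla2a, Ctla2b and Cst7 lie between -2.17 and -1.60 and Stfa3 at 1.25. The 10 genes were chosen with their differences known, so nothing is read from this contrast.

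Among other inhibitors and genes of the lysosome itself none was called. Of all genes 1.14% were called and 7.69% had an unadjusted p below 0.05. Of 12 measured serpins, inhibitors mostly of serine proteases, 0 were called by limma and 3 had an unadjusted p below 0.05, with a median log2 difference of 0.01. Serpinb9, the inhibitor of granzyme B, had a difference of 0.10 ± 0.14 (SE, adjusted p = 0.99991), and Serpinb6b one of 0.45 ± 0.15 (adjusted p = 0.367). Of 24 measured genes of lysosome biogenesis and delivery 0 were called and 2 had an unadjusted p below 0.05, with a median of -0.04. These 2, named after their values were seen, were both lower: M6pr by -0.25 ± 0.08 (SE, limma adjusted p = 0.307) and Gnptg by -0.30 ± 0.12 (adjusted p = 0.562). The mean of the 24 lay between -0.02 and 0.04 on Batf+/+ arrays and lower, between -0.05 and -0.03, on Batf-/- arrays. Its part in the results was not tested. Tfeb, the transcription factor of lysosomal genes, had a difference of 0.0047 ± 0.09 (adjusted p = 0.99991), and Lamp1, a membrane protein of lysosomes, one of 0.04 ± 0.08 (adjusted p = 0.99991). Of the 9 measured genes of MHC class II loading, Cd74, the invariant chain that Ctss cleaves, had one of 0.17 ± 0.12 (adjusted p = 0.924).

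Granzymes, the serine proteases of cytotoxic granules, are activated by cathepsin C. Among 9 genes of such proteases and of other granule components, limma called 2 lower and 0 higher, where 0.830% and 0.313% of all genes were. An unadjusted p below 0.05 was found for 3, as for 7.69% of all genes, and the median log2 difference was 0.03. Gzmb, granzyme B, read 0, -0.06 and 0.02 on the Batf+/+ arrays and -2.04, -2.12 and -1.89 on the Batf-/- arrays, and its difference was -2.01 ± 0.08 (SE, limma adjusted p = 4.08e-05), or -1.39 after quantile normalization. Gzmc, granzyme C, had a difference of -0.65 ± 0.11 (adjusted p = 0.0274), with adjusted p between 0.0258 and 0.319 over 12 alternatives. It missed the threshold in 7 of them, which included quantile normalization and the omission of Batf+/+ array 1 or 3 or of any one Batf-/- array. Nkg7, a granule membrane protein named after its value was seen, lay in the other direction without passing the threshold: it read 0, 0.20 and -0.11 on the Batf+/+ arrays and 0.56, 0.54 and 1.10 on the Batf-/- arrays, a difference of 0.70 ± 0.15 (SE, adjusted p = 0.0887).

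The genes outside the group whose 6 values lay nearest to each changed inhibitor were named by Euclidean distance, with 3 for each. For Ctla2a they were Penk (0.55 log2 units), Npas4 (0.96) and Gzmb (0.96), with log2 differences of -2.05, -2.12 and -2.01. For Ctla2b they were Myo1f (0.43), Lgals3 (0.57) and Ddx43 (0.66), with differences of -1.53, -1.94 and -1.35. For Cst7 they were Cd83 (0.48), Il18 (0.50) and Ttc39c (0.51), with differences of -1.31, -1.43 and -1.38. For Stfa3 they were Il21 (0.54), Dsp (0.61) and 9630013D21Rik (0.80), with differences of 1.09, 1.25 and 1.47. Several of these values moved with the processing: taken from the single probe set with the lowest p in place of the mean of a gene's probe sets, the differences were -2.99 for Ttc39c, -2.20 for Myo1f, 1.86 for Il21 and 1.93 for Dsp, and after quantile normalization they were -1.45 for Penk and -1.52 for Npas4. Likeness over 6 arrays reflects the genotype difference for the most part, and it is given as a description.

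**Figure D5:**
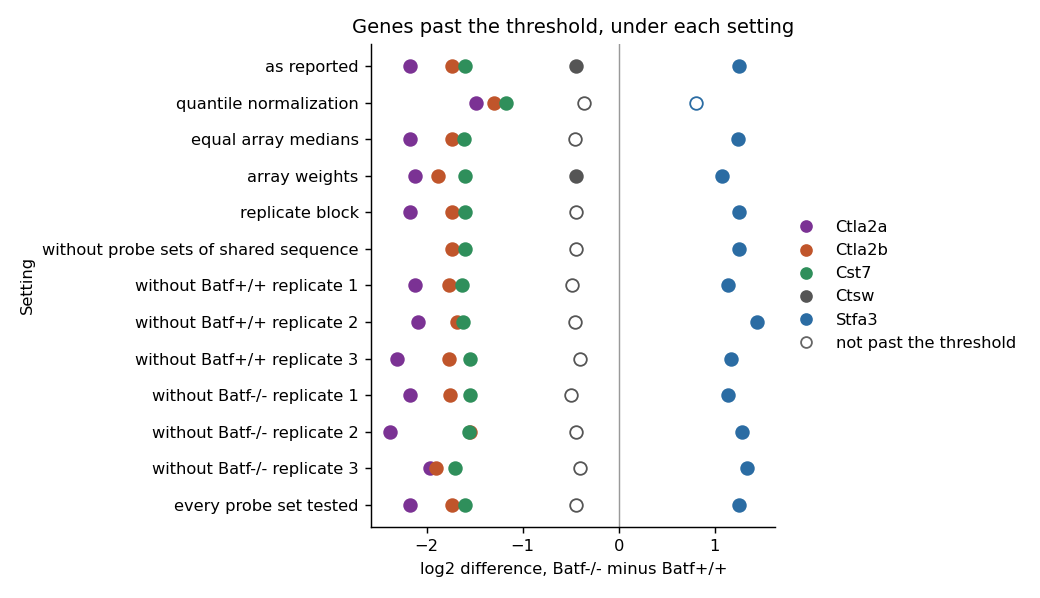
Log2 difference between genotypes (horizontal axis) of the 5 genes past the threshold, as reported and under 12 alternative settings (vertical axis); filled points are past an adjusted p of 0.05 and open points are not. Ctla2a, Ctla2b and Cst7 stay filled wherever they were measured, Ctsw is filled only as reported and with array weights, and Stfa3 is open after quantile normalization.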

How the data were processed

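The submitters' processing notes name RMA, with neither version nor log base, as the authors' method, and the deposited values are taken here as log2; the array software and genome build are not given in the sources used here. The median of the Batf+/+ arrays is exactly 0 for all 45101 probe sets, so the deposited values were centred on the Batf+/+ median. Centring keeps differences but removes levels, so dim and bright genes could not be told apart and no filter on low values was possible. RNA was labelled with a kit that primes at the transcript's end, per the labels' protocols, so a probe set reads mainly that end.

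Gene names came from GEO's annotation of the platform, where 34945 probe sets had 1 gene, 932 several and 9160 none listed, and 64 were controls; only those with 1 gene were used. A gene was the mean of its probe sets (9010 of 18193 genes had over 1). Genotypes were compared with limma 3.58.1 in R 4.3.3 (lmFit, eBayes, genotype only, Benjamini-Hochberg over all 18193 genes, threshold 0.05), tested on simulated data first. The 10 genes, the lists and tests were chosen with earlier results of these data known. Named are the 10 genes, Batf, called genes of 7 pathway lists, 12 genes fixed whatever their values (Serpina3g, one of them, had no probe set of its own) and the 3 genes of most similar pattern to each changed inhibitor; others are said to be named after their value was seen. Same-numbered arrays of the 2 genotypes deviated together (correlations over genes of 0.407, 0.154 and 0.413, each above 0.1). Array numbers were therefore taken as pairs in the replicate block alternative only, a choice that comes from the values, not the labels. The fit as reported, with its errors, intervals and calls, did not pair the arrays. Alternatives were quantile normalization, equal array medians, array weights, the replicate block, single probe sets, no probe sets of shared sequence, and leaving out each array. Shared sequence was read from probe set names ending in _s_at, _x_at or _a_at, and the probes' sequences were not checked. Promoter windows were aligned and searched with Python 3.11.15 and Biopython 1.88. With 3 arrays per genotype, their number sets the precision.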

Additional observations from a re-analysis of the deposited data

How the results depend on the processing

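Ctla2a, Ctla2b and Cst7 kept their direction and stayed past the threshold in every alternative in which they were measured (11, 12 and 12), with log2 differences of -2.38 to -1.48, -1.90 to -1.29 and -1.70 to -1.18. Without probe sets of shared sequence Ctla2a has no probe set left, its only one being 1448471_a_at. Ctsw also missed the threshold there (limma adjusted p = 0.0552), so 2 of the 10 genes were called lower in that setting. Quantile normalization left 0 of the 10 genes called higher, since Stfa3 was lost, and gave 58 genes lower and 23 higher over all genes, 151 and 57 as reported. That normalization was applied to values already centred on the Batf+/+ median. Under it the log2 difference of Batf went from -2.89 to -2.02 and that of Gzmb from -2.01 to -1.39. The part of the centring in the lost calls was not tested. The replicate block gave 91 genes higher and, among the 10 genes, ended the call of Ctsw and no other. When arrays were left out in turn, 3 of the 10 genes were called lower and 1 higher each time, because the call of Ctsw was lost, and over all genes 73 to 141 were lower and 31 to 51 higher; fewer arrays enter those fits. The count of lower granule genes, 2 as reported, was 1 after quantile normalization, 1 when every probe set was tested and 1 to 2 with an array left out, Gzmc being the gene lost. Among the genes of similar pattern, Il18 and Il21 missed the threshold after quantile normalization and Myo1f without Batf+/+ array 1 or 2. Signal over background is not known for centred values.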

Other observations

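Genes next to the inhibitors on their chromosomes were not called. Of all genes 1.14% were called and 7.69% had an unadjusted p below 0.05, so nothing is read from the counts of neighbours. In RefSeq gene order (GRCm38.p6) the measured genes on chromosome 13 run Ctsll3, 4930486L24Rik, Ctla2b, Tpbpb, Ctla2a, Tpbpa and then the placental cathepsins Ctsj, Ctsq, Ctsr and Cts6. Of the 11 genes other than Ctla2a and Ctla2b within 5 places of either, limma called 0 and 1 had an unadjusted p below 0.05, and their log2 differences lay between -0.43 (Ctsll3) and 0.19. Tpbpb, Tpbpa, Stfa2l1 and Csta1 were chosen by their place, after the values had been seen. Tpbpb, a trophoblast gene that lies between the 2 Ctla2 copies, had a difference of 0.04 ± 0.10 (SE, limma adjusted p = 0.9999), and Tpbpa, on the other side of Ctla2a, one of 0.11 ± 0.09 (adjusted p = 0.952).

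Around Cst7 on chromosome 2, limma called 0 of 10 neighbours, 1 of them with an unadjusted p below 0.05, with differences between -0.08 and 0.31. Around Stfa3 on chromosome 16 it called 0 of 10, 2 of them with an unadjusted p below 0.05, with differences between -0.69 and 0.52. The nearest measured stefin genes, Stfa2l1 and Csta1, stood at 0.01 ± 0.14 (SE, adjusted p = 0.9999) and -0.09 ± 0.08 (adjusted p = 0.975). Cd86, a costimulatory ligand of antigen-presenting cells that lies 2 places from Stfa3 and was named after its value was seen, had a difference of 0.52 ± 0.10 (adjusted p = 0.0552).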
